A study of Mus musculus with 2 samples.

Results

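The T and NK cells of a sorted mouse pancreas preparation are described here. They were 78 of the 728 cells in the deposited table (10.7%, exact 95% binomial interval 8.56 to 13.2), chosen by their measured counts. A cell was taken when it had at least 2 unique molecular identifiers (UMIs, each counting 1 captured RNA molecule) summed over Cd3e, Cd3d, Cd3g, Trbc1, Trbc2 and Nkg7. It also had to have fewer than 2 UMIs of the B cell genes Cd79a, Cd79b and Ms4a1, fewer than 5 of the neutrophil genes S100a8 and S100a9, and under 10% of its UMIs from the acinar genes Ctrb1, Try4, Cela1 and Prss2. The levels of these genes are therefore given as a description of the chosen cells.

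The cells came from the pancreas of adult mice of the genotype Tff2CreERT2; R26-tdTomato after tamoxifen. In these mice a tamoxifen-dependent Cre under Tff2 switches on a red fluorescent protein at the Rosa26 locus, and all samples share genotype and treatment. Live cells that were CD45- TER119- EpCAM+ RFP+ were collected by flow cytometry, per the labels, and made into 10x Genomics libraries. Blood cells were thus gated against. Which animals were pooled, and the time from tamoxifen to the sort, are not stated there. The labels name 2 biological replicates of 1 group and no control, and they do not tie cells to a replicate. The table was treated as 1 pooled sample, there is no replicate check and no p-value is given. Every interval covers counting error only.

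T cells recognise peptides on MHC molecules with a receptor of variable chains, which the CD3 proteins, products of Cd3d, Cd3e, Cd3g and Cd247, carry to the surface and link to signalling. Trac, Trbc1 and Trbc2 encode the constant parts of the alpha and beta chains, and Cd4 and the pair Cd8a and Cd8b1 encode co-receptors for MHC class II and class I. NK cells lack that receptor and kill with granzymes and perforin under the control of Ly49, NKG2 and NCR receptors. Nkg7 encodes a granule membrane protein of cytotoxic lymphocytes, and Il7r encodes the receptor chain for interleukin 7, on which naive and memory T cells depend.

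The regulatory sequences of the genes that chose the cells are shown first, because Cd3d, Cd3e and Cd3g are neighbours on mouse chromosome 9 and appeared together in the same cells. Each line gives the 250 bases before the transcription start, 5′ to 3′ on the gene's own strand, from RefSeq on GRCm38.p6. Capitals mark, on either strand, AGGAAG (the core bound by Ets factors), TGTGGT (a core bound by Runx factors) or CAGCTG (an E-box). A match on the other strand reads as its reverse complement. All 4 genes had 1 promoter in that table.
Cd3e, chr9:45009612-45009861, minus strand: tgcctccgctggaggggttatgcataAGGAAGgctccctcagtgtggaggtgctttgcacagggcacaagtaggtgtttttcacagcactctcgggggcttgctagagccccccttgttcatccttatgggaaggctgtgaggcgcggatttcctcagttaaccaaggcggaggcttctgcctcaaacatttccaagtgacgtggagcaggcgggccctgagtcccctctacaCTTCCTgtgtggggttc
Cd3d, chr9:44981536-44981785, plus strand: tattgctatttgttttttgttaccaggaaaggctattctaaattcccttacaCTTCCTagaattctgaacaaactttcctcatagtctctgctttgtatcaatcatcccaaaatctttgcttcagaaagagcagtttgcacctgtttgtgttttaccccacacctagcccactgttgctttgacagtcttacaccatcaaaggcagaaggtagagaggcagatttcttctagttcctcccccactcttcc
Cd3g, chr9:44980432-44980681, minus strand: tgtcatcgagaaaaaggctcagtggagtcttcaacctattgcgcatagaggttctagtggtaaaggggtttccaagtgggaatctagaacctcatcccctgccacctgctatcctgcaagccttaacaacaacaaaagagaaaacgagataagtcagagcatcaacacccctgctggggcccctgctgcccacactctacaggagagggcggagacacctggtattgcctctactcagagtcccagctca
Nkg7, chr7:43436888-43437137, plus strand: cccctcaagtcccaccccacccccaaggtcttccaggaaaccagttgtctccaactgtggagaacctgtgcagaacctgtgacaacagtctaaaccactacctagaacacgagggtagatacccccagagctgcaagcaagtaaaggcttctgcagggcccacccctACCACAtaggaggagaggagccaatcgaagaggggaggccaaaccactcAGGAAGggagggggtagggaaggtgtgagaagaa

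Cd3g and Cd3d are transcribed away from each other from starts 1355 bases apart. The Ets core occurred at 2 places before Cd3e, at 1 before Cd3d and at 1 before Nkg7, and the Runx core at 1 before Nkg7. None of the 3 motifs was in the window of Cd3g. Of all 32851 promoter windows of that length, 29.5% held AGGAAG, 14.0% held TGTGGT and 13.0% held CAGCTG, so a match is common and is given as a description of the letters only.

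The beta-chain constant genes Trbc1 and Trbc2 lie beside each other on chromosome 6 and are near-identical copies. Exon 3 of each is shown, plus strand of GRCm38 from the GENCODE M21 transcripts, because most of the coding bases that tell the copies apart are there. Capitals mark the bases that differ.
Trbc1, chr6:41539229-41539335: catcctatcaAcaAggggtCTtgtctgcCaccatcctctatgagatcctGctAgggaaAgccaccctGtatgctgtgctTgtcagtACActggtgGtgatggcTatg
Trbc2, chr6:41547772-41547878: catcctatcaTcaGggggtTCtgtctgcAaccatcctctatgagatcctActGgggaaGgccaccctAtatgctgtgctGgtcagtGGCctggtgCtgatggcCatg
This exon differed at 15 of 107 bases and the first exon at 1 of 375. Over the coding sequence 495 of 518 bases were equal (95.6%). Of all stretches of 50 bases in the Trbc1 transcript, 41.1% also occurred in Trbc2, and the reverse share was 44.0%. The 3′ untranslated ends, of 219 and 174 bases, shared no stretch of 20 bases. The sources used here do not give which end of the RNA the libraries read. The division of UMIs between Trbc1 and Trbc2 is therefore uncertain.

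The 78 cells held 215295 UMIs, with a median of 2448 per cell (1314 to 10386) and of 838.5 genes. The other 650 cells had a median of 2039 UMIs. The 102 B cells, taken by at least 2 UMIs of Cd79a, Cd79b and Ms4a1, had a median of 1622. Barcodes ending in 1 gave 73 of the T and NK cells and barcodes ending in 2 gave 5, which was 10.9% (8.68 to 13.6) of 667 cells and 8.20% (2.71 to 18.1) of 61. Of the barcode sequences, 7 occurred under both endings and 0 of these belonged to a T or NK cell. No doublet caller was run on them. The 6 genes of the rule summed to a median of 13 UMIs per cell (2 to 54), and 1 cell lay exactly at 2, with 2 more at 3. Just outside, 3 cells had 1 such UMI, and 1 cell with 3 was kept out by its acinar share of 30.5%. The limits on B cell and neutrophil genes removed 0 cells.

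Of the markers that the rule did not use, Trac was found in 57 of the 78 cells (73.1%, 61.8 to 82.5), in 1 of the 650 other cells and in 0 of the B cells, while markers of NK cells were found in few. The CD3 and Trbc genes chose the cells, so their counts are a description. All 78 had a UMI of one of them. A UMI of Cd3e, Cd3d or Cd3g was present in 70 cells (89.7%, 80.8 to 95.5) and UMIs of all 3 genes in 44. Among the other 650 cells 6 had a CD3 UMI, and among the 102 B cells 0 had one, which allows a share of up to 2.94%. Of the 6 NK markers Gzma, Klrb1c, Klra8, Ncr1, Klre1 and Eomes, 85 UMIs were counted in 6 cells, and 76 of these UMIs lay in a single cell.

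Within the receptor complex the signal was spread over many cells. Cd3d had 204 UMIs in 62 cells, with a median of 2 and a highest value of 10. Cd3g had 169 UMIs in 63 cells (median 2, highest 11), and Cd3e had 101 in 54 cells (median 1, highest 7). Trac, which the rule did not use, had 160 UMIs in 57 cells, 1 UMI among the other 650 cells and 0 among the B cells. Cd247, the zeta chain, had 36 UMIs in 26 cells. No one cell carried more than 8.12% of the Trac UMIs.

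Trbc2 UMIs were found in 73 cells (343 UMIs, median 4, highest 17) and Trbc1 UMIs in 36 (162 UMIs, median 0, highest 17). A cell of the alpha-beta type normally uses 1 of the constant genes, and 41 cells had Trbc2 alone, 4 had Trbc1 alone and 32 had UMIs of both. In 56 cells Trbc2 exceeded Trbc1, in 16 the reverse held, and 5 were equal. Because the division of UMIs between the copies is uncertain, the 32 mixed cells are not read as cells that use both genes. The source of the mixed counts was not tested.

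**Figure D1:**
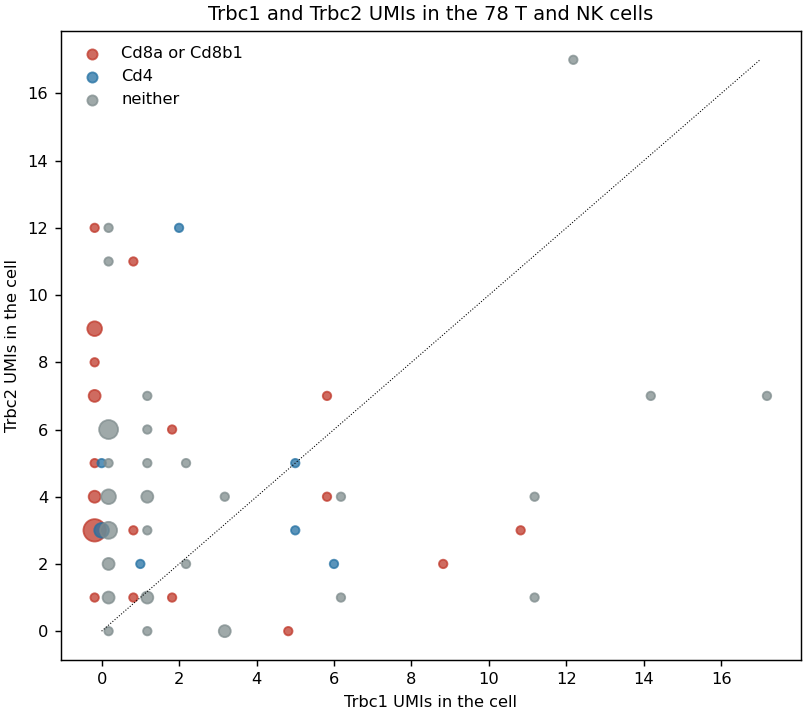
Trbc1 UMIs (x axis) against Trbc2 UMIs (y axis) in each of the 78 T and NK cells, coloured by co-receptor set; the area of a point grows with the number of cells at that place, points are shifted sideways by set to show overlaps, and the dotted line marks equal counts. A column of cells at 0 Trbc1 holds the 41 cells with Trbc2 alone, and few cells lie on the x axis.

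UMIs of variable segments were rare. Of the alpha-chain segments, 8 Trav symbols were in the table with 13 UMIs in 9 cells, and 2 Trbv symbols had 1 UMI each. All of these UMIs were in T and NK cells. One cell held 3 UMIs of Trav11 and 3 of Traj18, which together form the invariant alpha chain of NKT cells, and it was the only cell of the table with either. It also had UMIs of Cd3e, Cd3d, Cd3g (3 each), Trbc2 (4), Id2 (3), Il7r (2) and Cxcr6 (2), and no Nkg7 UMI. Gamma-delta constant genes were near 0, with Trdc in 2 cells, Tcrg-C4 in 4, and Tcrg-C1 and Tcrg-C2 in 1 each.

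Against all other cells, genes of receptor signalling and of the lymphocyte cytoskeleton were higher in the T and NK cells, and acinar, ductal, endothelial, mesenchymal and globin genes were lower. UMIs were summed over each set and scaled to counts per 1000000 (CPM), and a log2 ratio was formed with 0.5 counts added to each sum, for genes with at least 50 UMIs over both sets. Of 3615 such genes, 823 (22.8%) were at least 2-fold higher and 867 (24.0%) at least 2-fold lower. The exact interval excluded equal levels for 764 and 712 of them. The median gene stood at 0.25, and with the 8 acinar genes left out of the totals it stood at -0.07, with 531 higher and 1004 lower. Against other cells with under 10% of acinar UMIs, 226 genes were higher and 1002 lower, with the median gene at -0.44. The choice of cells used this contrast, so these counts describe the chosen set. Transcripts of ribosomal proteins also moved with it, at a median of 46.9% of UMIs in the T and NK cells, 39.5% in B cells and 11.9% in all other cells, and their part in the ratios was not tested.

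Among genes outside the rule, Skap1, an adaptor of receptor signalling, had 59 UMIs in 37 T and NK cells and 0 elsewhere, at least 195.3-fold higher with 3 counts set against the other cells. Dapl1, a gene of resting T cells, had 54 UMIs in 19 cells and 0 elsewhere (at least 178.7-fold). Ms4a4b, a T cell membrane protein, had 123 UMIs in 55 cells against 1 UMI, a log2 ratio of 9.67 (7.75 to 15.57). Cd28, the co-stimulatory receptor, had 57 UMIs in 28 cells against 1 (8.57, 6.61 to 14.47). Lat, the membrane scaffold phosphorylated after receptor engagement, had 124 in 53 cells against 4 UMIs (8.10, 6.87 to 10.16). Cd8b1 (7.32), the kinase gene Txk (7.10, 5.68 to 9.64), Izumo1r, which encodes folate receptor 4 of CD4 T cells (6.67), and the transcription factor gene Lef1 (6.38) completed the 10 highest together with Trac (10.05). Each of these was detected in 19 or more of the 78 cells, so none rests on a few cells.

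At the other end stood genes of the cells that filled most of the preparation. Hba-a1, an alpha globin, had 4 UMIs in the T and NK cells against 23799 elsewhere, a log2 ratio of -9.06 (-11.10 to -7.87). Hbb-bs, a beta globin, had 14 UMIs against 32905 (-7.84, -8.76 to -7.14). Spp1 of duct cells (-7.22, -13.11 to -5.33), Igkc of B cells (-6.99, -12.87 to -5.09) and Gp2 of acinar cells (-6.71, -10.07 to -5.17) were also lower, with 1, 1 and 2 UMIs in the T and NK cells. Kdr, Gpihbp1 and Aqp1 of endothelium, Krt18 of epithelium and Plpp3 had 0 UMIs in the T and NK cells, with folds of at least 22.7, 21.5, 20.3, 17.7 and 16.2.

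Lists of receptor signalling and of the cytoskeleton stood well above the median gene. Several others did too, such as co-receptors and co-stimulation (median 5.7) and naive and central memory (2.2). Some lists stood near it, and the MHC class II list stood below it (-1.4). In the T and NK cells, 262 of the 308 UMIs of that list lay in 1 cell. Without the 3 cells described below, Cd74 stood at -4.5, H2-Aa at -5.2, H2-Ab1 at -5.5 and H2-Eb1 at -4.9. Of the 14 genes of receptor signalling 8 passed the floor and all of these were higher, with a median log2 ratio of 3.97 against 0.25 for all genes, and Lck, the kinase that starts signalling, stood at 6.06 (5.33 to 6.95). Of 14 genes of the cytoskeleton list 13 passed the floor and were higher (median 2.58), with Rac2, a small GTPase of blood cells, at 3.46 (3.20 to 3.73) and Tmsb10, an actin-binding peptide, at 2.95 (2.87 to 3.03). Of the 5 MHC class I genes, which serve antigen display to CD8 T cells, 4 were higher and H2-D1 stood between the limits at 0.88. Of 12 immediate early genes, 3 were higher, 2 lower and 7 between, with Junb at 2.19 and Jun at -1.82. That share and the list's median of 0.26 lie near those of all genes. Of 8 interferon response genes 3 were higher and of 3 cytokine receptors 1, against 22.8% of all genes. Of the NK receptor list 2 genes passed the floor and 0 were higher. These were the adaptor genes Fcer1g and Tyrobp, with 218 and 216 UMIs in the other cells. The receptor gene Klrd1, with 20 UMIs against 5, was under the floor.

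The comparison with B cells separates what is shared by lymphocytes from what is not. With the same floor, 783 genes were compared. Of these, 60 (7.66%) were at least 2-fold higher in the T and NK cells and 71 (9.07%) at least 2-fold lower. The exact interval excluded equal levels for all of them, which follows from the floor and the 2-fold limit at the UMI totals of these sets. The 11 cytoskeleton genes over the floor all lay between the limits (median -0.01), as did the 4 MHC class I genes (median 0.27) and all 9 immediate early genes (median 0.20). Rac2 had a log2 ratio of 0.30 (0.03 to 0.58) and Coro1a of 0.03 (-0.26 to 0.32). Cd52, a surface glycoprotein of lymphocytes, stood at -0.52 and Ltb, lymphotoxin beta, at -0.31.

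What differed were the receptor genes and a short series beyond them. Trac, Skap1, Cd28, Dapl1 and Cd8b1 had 0 UMIs in the 102 B cells. Lck had 110 UMIs in 56 T and NK cells and 12 in 8 B cells (3.05, 2.24 to 4.10). Rgs10, a regulator of G protein signalling, had 120 in 47 cells against 7 in 6 (3.91, 2.92 to 5.35), Id2, an inhibitor of E proteins, had 57 in 21 against 3 in 3 (3.95, 2.54 to 6.48), and Thy1, a surface marker of T cells, had 78 in 42 against 1 (5.62, 3.67 to 11.52). The 4 MHC class II genes were lower, Cd74 at -4.81 (-5.05 to -4.59), although 262 of their 308 UMIs in the T and NK cells lay in 1 cell, and the B cell genes Igkc (-10.37, -16.26 to -8.48), Ly6d and Iglc1 were among the 10 lowest. Ccl5 was among the 10 highest at 6.97, but 59.0% of its 200 UMIs came from 1 cell.

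**Figure D2:**
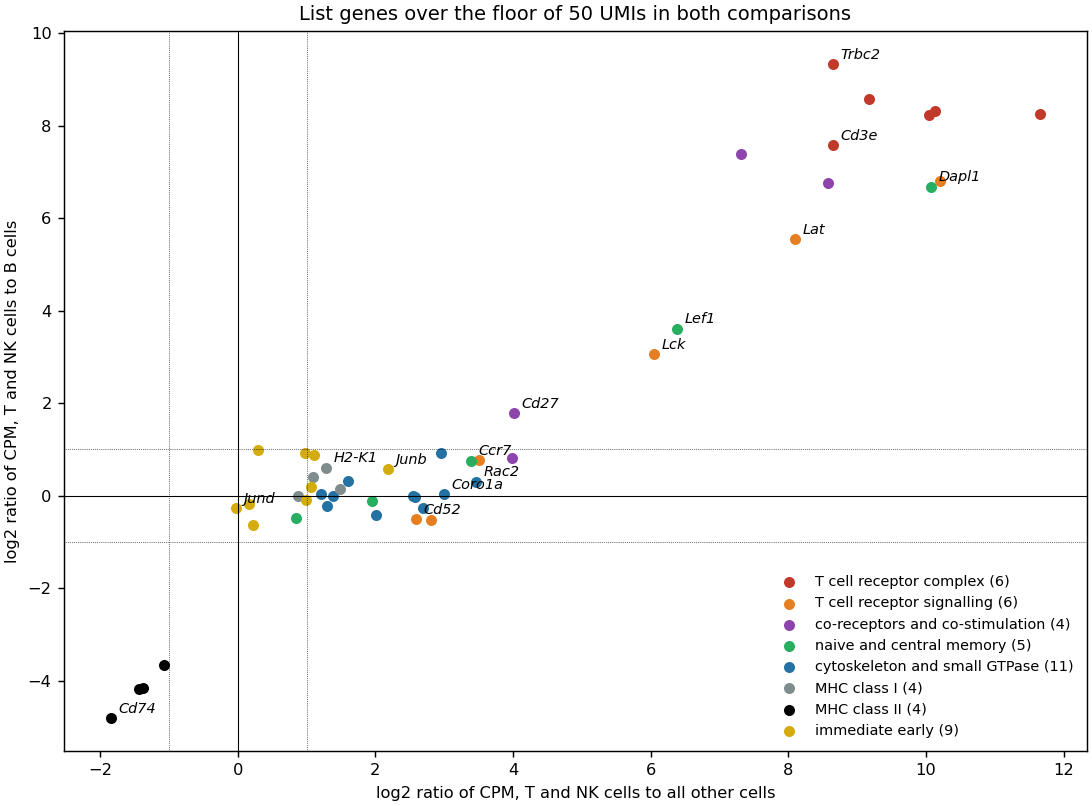
Log2 ratio of CPM of list genes in T and NK cells against all other cells (x axis) and against B cells (y axis), for the genes reported here that passed the floor of 50 UMIs in both comparisons; 1 point per gene, coloured by list, dotted lines at 2-fold, and genes with 0 UMIs in a comparison set are placed with 0.5 counts added. Cytoskeleton genes lie right of 0 on the x axis and between the dotted lines on the y axis, genes of the receptor complex lie high on both, and the 4 MHC class II genes lie low on both.

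Co-receptor UMIs divided the cells into sets that did not overlap. Cd8a or Cd8b1 was found in 28 cells (35.9%, 25.3 to 47.6), Cd4 in 9 (11.5%, 5.41 to 20.8), both in 0 and neither in 41. Every Cd8 cell had Cd8b1 (1 to 6 UMIs, median 3), and 14 had Cd8a (17.9% of all 78, 10.2 to 28.3, highest 5 UMIs). Cd8a was at 0 in all 650 other cells, and 4 of these had a Cd8b1 UMI. The 9 Cd4 cells had 1 Cd4 UMI each, so the 41 cells with neither cannot be called cells without a co-receptor. Thinned to 1000 UMIs per cell, 15.4% of the cells had Cd8a and 6.41% had Cd4. The median depth was 2938 UMIs in Cd8 cells, 2044 in Cd4 cells and 2270 in the rest.

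The Cd8 cells had more of Ly6c2, Nkg7 and Plac8, and the Cd4 cells more of Cd28, with Izumo1r in a larger share of them. Of 448 genes with at least 20 UMIs over both sets, 31 (6.92%) were at least 2-fold higher in the Cd8 cells and 26 (5.8%) at least 2-fold lower, but the interval excluded equal levels for only 12 and 11 of these. Ly6c2, a surface protein of the Ly6 family, had 60 UMIs in 12 of 28 Cd8 cells (42.9%, 24.5 to 62.8) and 0 in the 9 Cd4 cells and the 41 with neither. With 3 counts set for the Cd4 cells it was at least 4.72-fold higher in the Cd8 cells (exact log2 interval from 1.90). Ly6c2 passed the floor through the Cd8 cells alone, so this fold is a description. The Cd8 cells held 81320 UMIs and the Cd4 cells 19207. With no floor, 512 genes were at least 2-fold higher in the Cd8 cells and 1973 lower. Plac8 had 41 UMIs in 11 Cd8 cells, 0 in the Cd4 cells and 15 in 3 cells with neither. Klrd1, which encodes CD94 of the NKG2 receptors, was in 9 Cd8 cells, 0 Cd4 cells and 3 with neither, and Ctsw, a protease of cytotoxic cells, in 10, 0 and 3, and both were under the floor in this comparison. Of the cytotoxic effectors 2 passed it, Nkg7, a gene of the rule, and Srgn, a granule proteoglycan, which stood between the limits at -0.78 (-2.05 to 0.78).

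In the other direction, Cd28 had 18 UMIs in 10 of 28 Cd8 cells and 15 in 6 of 9 Cd4 cells, a log2 ratio of -1.83 (-2.89 to -0.73). Izumo1r was found in 2 of 28 Cd8 cells (7.14%, 0.88 to 23.5), 5 of 9 Cd4 cells (55.6%, 21.2 to 86.3) and 12 of 41 with neither (29.3%, 16.1 to 45.5). Rnaset2b (-1.70), Psmb1 (-1.62), Hmgb1 (-1.54) and Gnai2 (-1.39) were the other 4 lowest genes. Ms4a4b was in 25 of 28 Cd8 cells (89.3%, 71.8 to 97.7) and 3 of 9 Cd4 cells (33.3%, 7.49 to 70.07). Id2 was mostly in cells with neither co-receptor, in 16 of 41 (39.0%, 24.2 to 55.5) against 3 of 28 Cd8 and 2 of 9 Cd4 cells.

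Some genes were found more often in Cd8 cells with Ly6c2 than in those without, and Nkg7 was not clearly one of them. Of the 12 Cd8 cells with Ly6c2, 9 had Plac8 against 2 of 16 without, 7 had Klrd1 against 2, 7 had Dapl1 against 3, and 9 had Lef1 against 5. Nkg7 was in 9 of 12 (75%, 42.8 to 94.5) and 10 of 16 (62.5%, 35.4 to 84.8), whose intervals overlap widely. Depth differed with it, at a median of 3481 UMIs against 2440. After thinning to 1000 UMIs the counts were 5 against 2 cells for Plac8, 4 against 1 for Klrd1, 4 against 3 for Dapl1, 6 against 2 for Lef1 and 4 against 5 for Nkg7. The part of depth in the remaining differences was not tested.

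**Figure D3:**
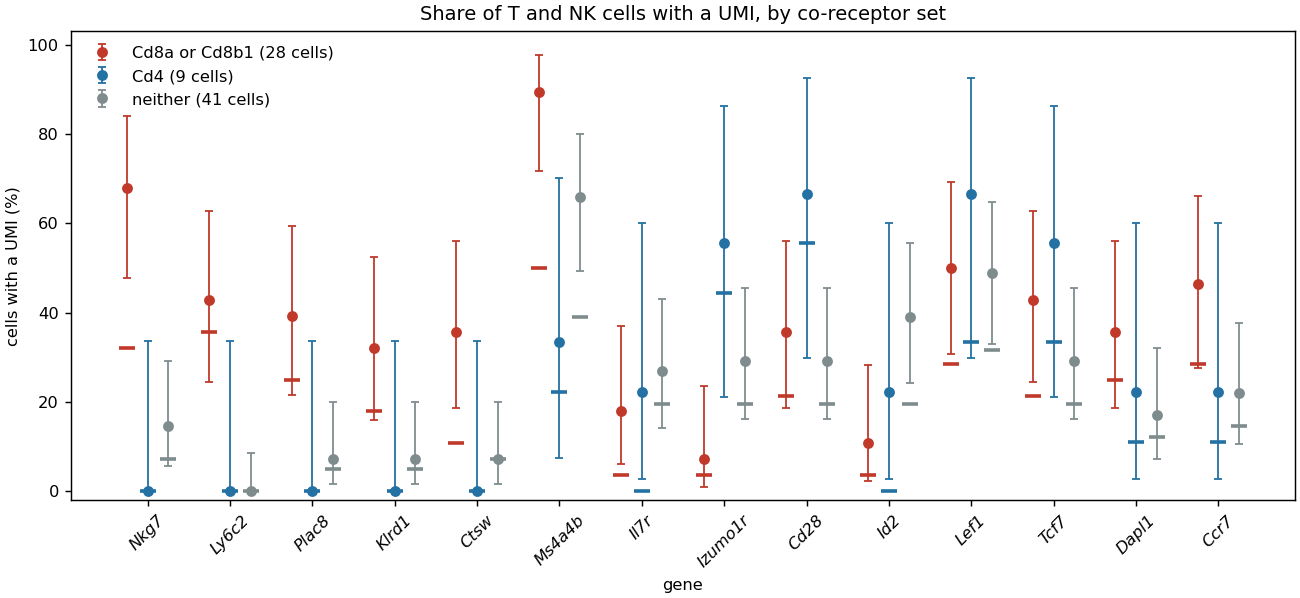
Share of cells with a UMI of each gene (y axis, %) in the 28 cells with Cd8a or Cd8b1, the 9 with Cd4 and the 41 with neither; points are shares with exact 95% intervals, and short bars without a point are the shares after thinning each cell to 1000 UMIs. Nkg7, Ly6c2, Plac8, Klrd1 and Ctsw are at 0 in the Cd4 cells, and Lef1 is at 48.8% to 66.7% in all 3 sets.

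Nkg7 was present in 25 of 78 cells (32.1%, 21.9 to 43.6), with 86 UMIs, a highest value of 18 and 0 UMIs in all other cells. It was found in 19 of 28 Cd8 cells (67.9%, 47.6 to 84.1), 0 of 9 Cd4 cells (which allows up to 33.3%) and 6 of 41 with neither (14.6%, 5.57 to 29.2). The Cd8 cells with Nkg7 had low values, 1 to 4 UMIs with a median of 2. Thinned to 1000 UMIs, 32.1% of Cd8 cells and 7.32% of those with neither had it. Cells with Nkg7 were deeper, at a median of 2958 UMIs against 2148.

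Of 1033 genes with at least 20 UMIs, 49 (4.74%) were at least 2-fold higher in the cells with Nkg7 and 67 (6.49%) at least 2-fold lower. The interval excluded equal levels for 37 and 30. All 31 UMIs of Cd8a were in 14 of the 25 cells with Nkg7. Cd8a thus passed the floor through the cells with Nkg7 alone. With 3 counts set for the cells without, Cd8a was at least 17.6-fold higher (exact log2 interval from 3.75). Cd8b1, found in every Cd8 cell, had 64 UMIs in 19 cells with Nkg7 and 24 in 9 without (2.17, 1.49 to 2.93). Ctsw had 20 UMIs in 12 cells with Nkg7 and 2 in 1 cell without (3.81, 2.05 to 7.23). Izumo1r was lower, with 4 UMIs in 3 cells against 52 in 16 (-2.77, -4.86 to -1.49), and so were Sepp1 with 0 UMIs against 26 in 14 cells, Cdc42se2 (-2.12, -5.55 to -0.34), Hnrnpc (-1.78, -4.36 to -0.21) and Atp6v1g1 (-1.75). Junb stood at -1.04 (-1.46 to -0.65) and Ier2, also an immediate early gene, at -1.55 (-2.92 to -0.51).

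A part of the higher side of that comparison rested on single cells. For 15 of the 49 higher genes, more than 50% of the UMIs came from 1 cell. Ccl5, a chemokine of activated and memory T cells and NK cells, had 199 of 200 UMIs in 8 cells with Nkg7, and 118 of these in 1 cell. Tyrobp and Cst3 were also among the 5 highest, with 63.2% and 97.9% of their UMIs from 1 cell. Without the 3 cells described next, 28 genes were higher in place of 49, Ccl5 had 55 UMIs against 1, and Ly6c2 (2.57) and Plac8 (2.20) were higher too.

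The 3 cells that weighed most were chosen after their values were seen. The first had 2839 UMIs, among them 118 of Ccl5, 58 of the granzyme gene Gzma, 18 of Nkg7, 16 of Fcer1g, 12 of Tyrobp, 10 of Klra7, 8 of Klra8, 7 of Klrb1c, 7 of Klrk1, 6 of Klrd1, 3 of Gzmb and 2 of Ncr1. It had no CD3 UMI, and 1 UMI each of Trbc1 and Trac. These are genes of NK cells, Klra7 and Klra8 being Ly49 receptors and Fcer1g and Tyrobp adaptors, and no other cell of the table had a Klra7 or Klra8 UMI.

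The second of these cells had 7966 UMIs, with 124 of Cd74, 94 of Cst3, 49 of H2-Eb1, 46 of H2-Aa and 43 of H2-Ab1, the MHC class II set of antigen-presenting cells, and 6 of Lyz2. It also had 26 UMIs of Ccl5, 11 of Cd7, 11 of Id2, 10 of Plac8, 6 of Nkg7, 3 of Trbc1 and 3 of Klrb1c, and no CD3 UMI. Of other genes listed for the first cell, it had 9 UMIs of Fcer1g, 6 of Tyrobp, 4 of Klrk1 and 1 of Ncr1. The other had 8423 UMIs and all 155 UMIs of Glycam1 and all 64 of Ccl21a in the T and NK cells, with 24 of Lrg1, 21 of Ubd and 15 of Egfl7. Glycam1 and Ccl21a are genes of the high endothelial venules through which lymphocytes enter lymph nodes. It had 4 UMIs of the rule (Cd3d 2, Cd3e 1 and Trbc2 1), so its markers go against its place among T and NK cells. The last 2 cells and one of 10386 UMIs were the deepest of the 78, and whether they hold more than 1 cell was not tested.

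**Figure D4:**
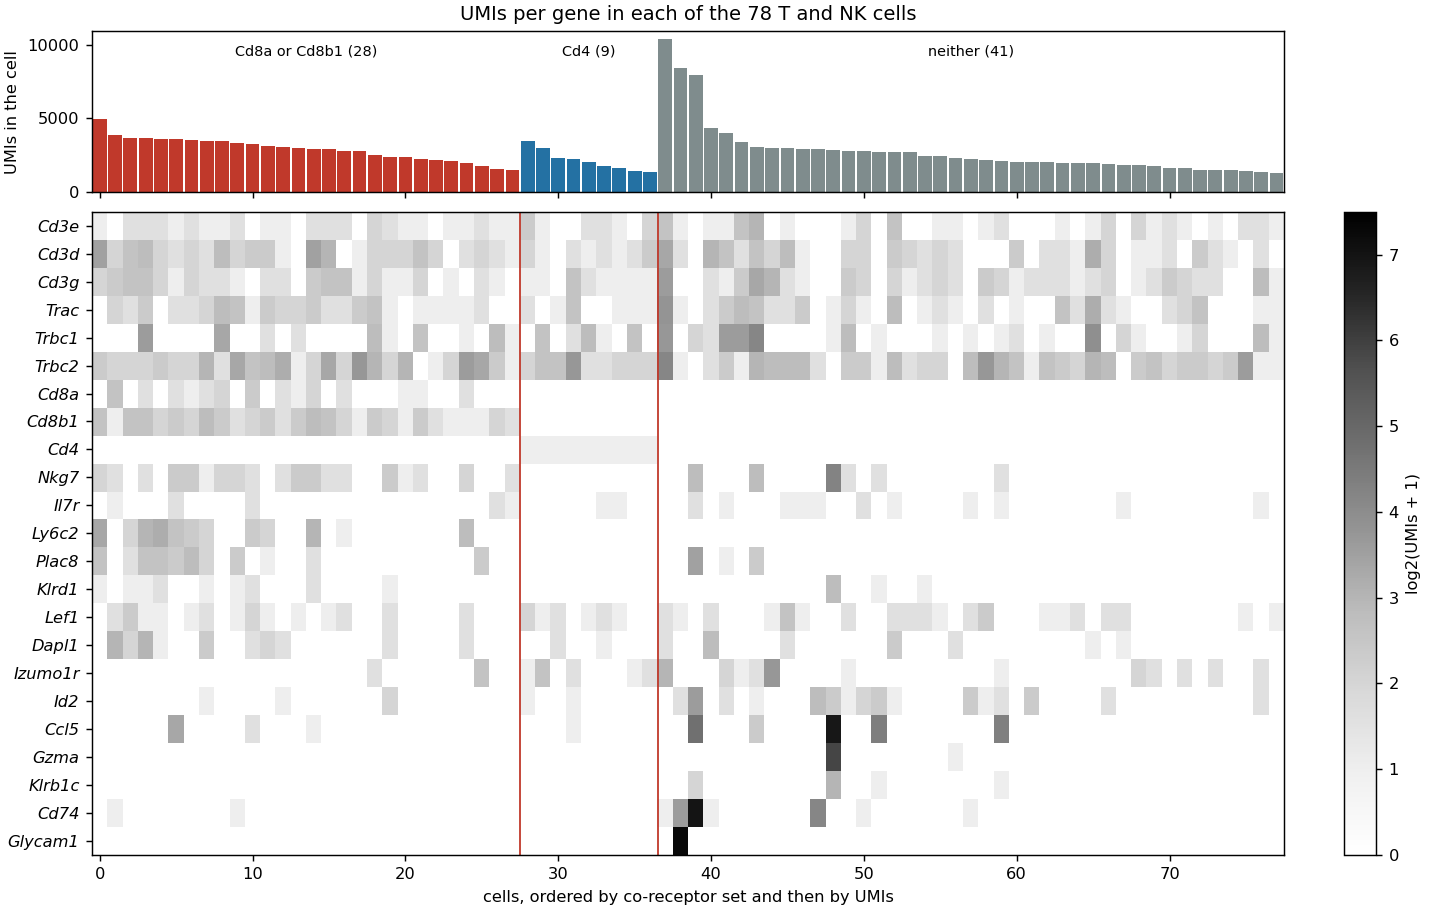
UMIs per cell (top, bars) and UMIs of 23 genes in each of the 78 T and NK cells (bottom, grey scale of log2(UMIs + 1)); columns are cells, ordered by co-receptor set and then by UMIs, and red lines divide the sets. Cd3 and Trbc2 signal runs across nearly all columns, Ly6c2 lies in the Cd8 block only, and Gzma, Cd74 and Glycam1 are each darkest in 1 column, a different one for each gene, among the cells with neither co-receptor.

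Other cells without a CD3 UMI numbered 6. One, with 2729 UMIs, had 20 of Ccl5, 4 of Fcer1g, 4 of Id2, 2 of Nkg7 and 1 each of Klrb1c, Klrd1, Klrk1, Ncr1, Trbc1 and Trbc2, and 17.5% of its UMIs were mitochondrial, the highest share of the 78. The cell that met the rule at exactly 2 UMIs, both of Trbc2, had 17 UMIs of Cd74, 10 of Ltb, 7 of Tmem176a, 6 of Tmem176b, 6 of Id2 and 1 of Il7r. A cell of 2270 UMIs had 6 of Trbc2, 4 of Fcer1g, 4 of Id2, and 1 each of Tcrg-C4 and Il7r. The remaining 3 had Trac UMIs with Cd8a and Cd8b1, with Cd4, or with neither.

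Il7r was present in 18 cells (23.1%, 14.3 to 34.0) with 23 UMIs, against 2 of 650 other cells and 0 of 102 B cells. It was found in 5 of 28 Cd8 cells (17.9%, 6.06 to 36.9), 2 of 9 Cd4 cells (22.2%, 2.81 to 60.01) and 11 of 41 with neither (26.8%, 14.2 to 42.9), and these intervals overlap widely. It did not divide with Nkg7 either, with 6 of 25 cells with Nkg7 (24.0%, 9.36 to 45.1) and 12 of 53 without (22.6%, 12.3 to 36.2). At 1000 UMIs per cell its share was 11.5%, so most cells without a UMI cannot be called cells without the transcript.

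Between cells with and without Il7r, 44 of 1033 genes (4.26%) were at least 2-fold higher and 73 (7.07%) at least 2-fold lower, with intervals clear of equal levels for 24 and 26. The 5 highest, H2-Eb1, H2-Aa, H2-Ab1, Cd74 and Cst3, took 86.1% to 97.7% of their UMIs from the cell rich in MHC class II. Id2 was higher with 31 UMIs in 8 cells against 26 in 13 (1.94, 1.14 to 2.75), and at 1.83 without the 3 cells. Of 10 genes of the naive and central memory list over the floor, 3 were lower and 7 between, with a median of 0.00018. Among them were Klf2, a factor of resting T cells (6 UMIs against 67, -1.69, -3.29 to -0.59), and Ccr7, the lymph node homing receptor (3 against 35, -1.65, -4.20 to -0.19), while Satb1 stood at 0.91 (-0.27 to 1.97), Tcf7 at 0.66 (-0.50 to 1.68) and Lef1 at 0.36 (-0.48 to 1.11). Myh9 had 0 UMIs against 24 in 18 cells. With 3 counts set for the 0 it was at least 2.48-fold lower, while its exact interval ended at a log2 ratio of -0.90. S100a6 (-2.56, -8.47 to -0.52), Dcun1d5 (-2.51, -8.42 to -0.46), Pglyrp1 (-2.34, -8.26 to -0.28) and Prkar1a (-2.28, -8.20 to -0.21) had 1 UMI each in the cells with Il7r. Their intervals reach nearly to equal levels.

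Genes of naive and central memory T cells were widespread. Of the 78 cells, 72 had a UMI of the 12 genes of that list, with a median of 5 UMIs per cell and a highest value of 26. Of the 102 B cells 86 had one, with a median of 2, at a lower median depth (1622 UMIs against 2448). The part of depth in this difference was not tested. All 8 cells without a CD3 UMI had one as well. Lef1 was in 40 cells (51.3%, 39.7 to 62.8), at 14 of 28 Cd8, 6 of 9 Cd4 and 20 of 41 with neither. Tcf7, its partner factor, was in 29 cells (37.2%), Igfbp4 in 25 (32.1%), Ccr7 in 24 (30.8%), Satb1 in 21 (26.9%), and Dapl1 in 19 (24.4%). Against B cells, Lef1 (3.61, 2.45 to 5.40) and Dapl1 (at least 16.9-fold) were higher, while Klf2 (-0.11), Ccr7 (0.75) and Foxp1 (-0.49) lay between the limits. The 19 cells with Izumo1r had Lef1 in 5 (26.3%, 9.15 to 51.2) and the 59 without it in 35 (59.3%, 45.8 to 71.9), and thinned to 1000 UMIs the counts were 0 and 24.

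Of the tissue residence and activation list, 70 of the 78 cells had a UMI, against 45 of 102 B cells and 259 of all 650 other cells. Median depth was 2448, 1622 and 2039 UMIs in that order, and its part in the shares was not tested. The genes of the list differed. Of 6 genes over the floor against all other cells, 5 were higher and Ahr, the aryl hydrocarbon receptor, was lower with 2 UMIs (-1.87, -5.25 to -0.29). Of all 3615 genes in that comparison, 22.8% were higher and 24.0% lower. Rgs10, in 47 cells, stood at 4.19 (3.75 to 4.66). Against B cells, Rgs10, Rgs1 and Id2 were the 3 genes over the floor. All were higher, as were 7.66% of all 783 genes. Itgae and Itga1, the integrins of resident T cells, and Prdm1, a factor of effector cells, had 0 UMIs, a limit of 13.9 CPM. Cxcr6, a chemokine receptor of resident T cells, had 11 UMIs in 6 cells, and 5 of these 6 had Id2 against 16 of 72 without Cxcr6. Cd69 was in 16 cells, and its log2 ratio to all other cells was 2.81 (1.92 to 3.65). Rgs1 was in 21 cells at 3.96 (3.25 to 4.70). Of the cytotoxic effectors list, 52 cells had a UMI, against 47 of 102 B cells, and the part of depth was again not tested. Srgn was in 37 T and NK cells, Nkg7, a gene of the rule, in 25 and Ctsw in 13. UMIs of 4 other effector genes were found in few cells. Ifng was in 3 cells, Tnf in 3, Gzmb in 1 and Prf1, perforin, in 2, and no gene of these 4 had more than 4 UMIs. Foxp3, the factor of regulatory T cells, was in 2 cells, Ctla4 in 6 and Tnfrsf4 in 7. Of the cell cycle list, 20 cells had a UMI, and Pcna, a DNA replication clamp that also acts in repair, was in 12 cells at 1.61 (0.64 to 2.43) against all other cells. Mki67 was in 1 cell, the one with 10386 UMIs, which also held 10 of the 12 Stmn1 UMIs, 2 of the 3 Top2a UMIs and 9 of the 17 Tnfrsf4 UMIs.

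RNA of other cell types was present at levels that differed by gene. The 5 neutrophil markers were all at 0, the 8 macrophage and dendritic markers had 7 UMIs in 2 cells, and C1qa, C1qc, Csf1r and Adgre1 were at 0. The 5 endothelial markers had 39 UMIs in 11 cells, 29 of them in 1 cell, and Kdr was at 0. The 4 erythroid markers had 22 UMIs in 18 cells. Acinar RNA was in every cell: the 4 acinar genes of the rule made up a median of 0.607% of UMIs (0.248 to 1.96), and in B cells 0.796%. The 5 cells whose barcode ended in 2 had a median of 1.72% and the 73 with ending 1 of 0.573%.

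Ighm, the immunoglobulin mu heavy chain, was found in a larger share of the T and NK cells than of the cells outside both lymphocyte sets. It had 41 UMIs in 32 of 78 T and NK cells (41.0%, 30.0 to 52.8), against 27 of 548 cells outside the T and NK and B sets (4.93%, 3.27 to 7.09), and 92 of 102 B cells. At 1000 UMIs per cell the shares were 19.2%, 2.74% and 82.4%. The light chain Igkc had 1 UMI in the T and NK cells, 1867 in the B cells and 19 in the cells outside both. Ighm UMIs thus stood at 41 to 1 of Igkc in T and NK cells and at 512 to 1867 in B cells. The source of these UMIs was not tested. Iglc2 had 3 UMIs, Ighd 1, Cd79a 0, and Cd79b 5 in 5 cells. Ighm was in 7 of 28 Cd8 cells, 6 of 9 Cd4 cells and 19 of 41 with neither, and in 6 of 25 cells with Nkg7 against 26 of 53 without.

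The sort gate and the reporter can be set beside these values. Ptprc, which encodes CD45, the antigen the gate was set against, had 62 UMIs in 37 of the 78 cells (47.4%, 36.0 to 59.1). It was found in 28 of 102 B cells (27.5%) and in 6.15% of all 650 other cells, which include those B cells. Epcam, the antigen the gate required, had 2 UMIs in 2 cells. Tff2, whose promoter drives the Cre, had 13 UMIs in 13 cells (16.7%, 9.18 to 26.8, 60.4 CPM), against 14 of 102 B cells (13.7%, 7.71 to 22.0, 74.2 CPM), and 3.85% and 7.84% after thinning to 1000 UMIs. The intervals of both lymphocyte sets overlap. The B cells came through the same gate, and the source of these UMIs was not tested. Of the 548 cells outside both sets, 331 had a Tff2 UMI (60.4%, 56.2 to 64.5, 4063 CPM). The RFP row of the table had 0 UMIs in the T and NK cells and 2 in the rest of the table.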

How the data were processed

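One deposited table of raw UMI counts per gene and cell was used (14793 gene rows, 728 cells, 2353008 UMIs, 1004 to 53222 per cell). The submitters' processing notes name Cell Ranger and mm10. The authors' filters on genes and cells were not stated, and no doublet caller was run. Symbols on 2 rows (4) were summed. Barcode endings are not tied to the 2 samples, so cells were pooled and no test was run. Members and gene lists were chosen with earlier results of these data known.

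UMIs were summed per set, scaled to CPM, and compared as log2 ratios with 0.5 counts added, a floor of 50 UMIs (20 within the T and NK cells) and a fixed 2-fold limit. Intervals are exact 95% binomial (Clopper-Pearson) or Poisson. For folds given as at least a value, a 0 is bounded by 3 counts. That bound leaves out the counting error of the other set, so the exact interval can end closer to equal levels. A gene at 0 in 1 set passed the floor through the other set alone, so such folds are descriptions. Cells were thinned to 1000 UMIs with seed 0. Named genes are the 10 highest and 10 lowest ratios (5 and 5 within the set) with a UMI in at least 10% of cells of the higher set, leaving out rule, mitochondrial, ribosomal protein and unnamed genes; genes of lists, and those said to be chosen after their values were seen, are named besides. Locations are from GENCODE M21. The ratio script was tested on simulated counts. Python 3.11.15, pandas 2.3.3, numpy 2.4.6 and scipy 1.17.1 were used. A few genes of the lists are not reported here.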

Additional observations from a re-analysis of the deposited data

How the results depend on the processing

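Of 129 values recomputed under 11 other settings, 100 kept within 1.5 times (counts) or within their interval (shares), and 29 moved. With each cell thinned to 1000 UMIs, the share with Nkg7 was 15.38% and with Il7r 11.54%. Counts of genes at least 2-fold higher and lower then became 274 and 387 against all other cells, 16 and 33 against B cells, 7 and 11 for Cd8 against Cd4, 16 and 32 by Nkg7, and 23 and 35 by Il7r. Of the named genes, 11 of 20, 8 of 20, 0 of 10, 2 of 10 and 0 of 10 in that order then kept their side of the 2-fold limit, and 9, 12, 10, 8 and 8 were under the floor. With no floor on UMIs they were 4825 and 2636, 2861 and 2417, 512 and 1973, 1758 and 1754, and 2042 and 1272 in that order. With 2 counts added in place of 0.5, 12 genes were higher for Cd8 against Cd4, 35 were lower by Nkg7 and 31 lower by Il7r. Without the 8 acinar genes in the totals, 531 genes were higher against all other cells, and against other cells under 10% acinar 226 were. Genes higher by Nkg7 were 29 without the 4 cells with markers of another type and 28 without the 3 cells described above, a setting chosen after seeing the data. Those 3 left out, 6 of 10 named genes kept their side by Nkg7 and 5 of 10 by Il7r. The last setting also turned Cd74 from 2.73 to -2.22 by Nkg7, and thinning turned Cst3 by Il7r from 4.92 to -0.52. The cause was not tested, apart from the smaller number of UMIs or cells that the settings themselves bring. Precision is limited by 1 pooled sample, 9 Cd4 cells and about 2448 UMIs in the median T or NK cell. Leaving out a replicate was not possible. No paired analysis was possible because the cells are not tied to the 2 replicates.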
